A study of Homo sapiens with 2 samples.

Results

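The miR-99/miR-100 family was measured among the small RNAs that a resin carrying the long non-coding RNA MACC1-AS1 retained from MDA231 lysate, a triple-negative breast cancer line. Its members were taken by name, and all 6 were found among the 2588 mature miRNA names in the data: hsa-miR-100-5p, hsa-miR-99a-5p and hsa-miR-99b-5p, and the opposite arms hsa-miR-100-3p, hsa-miR-99a-3p and hsa-miR-99b-3p. The bait library came from amylose resin on which lncRNA MACC1-AS1-MS2, transcribed in vitro, was held by the MS2 coat protein fused to maltose-binding protein. The no-bait library came from resin with no RNA substrate, so the control lacked the MS2 hairpins as well as MACC1-AS1, and a difference cannot be assigned to either of them. Both used parental MDA231 cells, and each group was 1 library, with no replicate check on any difference and no p-value.

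Members of the miR-99/miR-100 family are among the oldest animal miRNAs and descend from the same ancestor as miR-10. The 5p arm of each hairpin is the strand normally loaded into Argonaute, where its seed selects target messages, and the 3p arm is normally discarded. Known targets of the family include the growth kinase MTOR and the receptor IGF1R. In the human genome the family is encoded beside let-7 and miR-125 genes.

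The mature sequences show why the 5p arms are treated as a family and how close they are as reads. They are RefSeq sequences on GRCh38.p14, where all 6 members were matched, written 5′ to 3′ with the seed (bases 2 to 8) in capitals.
hsa-miR-100-5p: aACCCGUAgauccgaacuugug
hsa-miR-99a-5p: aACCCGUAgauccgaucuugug
hsa-miR-99b-5p: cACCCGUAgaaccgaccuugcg
hsa-miR-100-3p: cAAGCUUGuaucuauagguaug
hsa-miR-99a-3p: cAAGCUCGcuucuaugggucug
hsa-miR-99b-3p: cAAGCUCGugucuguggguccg
The seed ACCCGUA was carried by the 3 5p arms and by no other of the 2281 names with a RefSeq sequence. Counted from the 5′ end with the base of miR-100-5p first, miR-99a-5p differed from miR-100-5p by A16U alone. miR-99b-5p differed from miR-100-5p by A1C, U11A, A16C and U21C, all outside the seed. The G and C content was 50% in miR-100-5p and miR-99a-5p and 63.6% in miR-99b-5p. Among the 3p arms, miR-99a-3p and miR-99b-3p shared the seed AAGCUCG, and miR-100-3p carried AAGCUUG. How the authors assigned reads with mismatches is not given in the labels or files, so the counts of names 1 base apart are uncertain.

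Each member comes from 1 hairpin. MIR100 lies on chromosome 11 (122152229 to 122152308, minus strand) in an intron of the non-coding host gene MIR100HG. MIR99A lies on chromosome 21 (16539089 to 16539169, plus strand) in an intron of the non-coding host gene MIR99AHG. MIR99B lies on chromosome 19 (51692612 to 51692681, plus strand) in an intron of SPACA6, a gene needed for sperm and egg fusion, and overlaps an exon of SPACA6P-AS on the opposite strand. Host genes are those of GENCODE version 29 on GRCh38.

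The bait library held 1047269 miRNA counts and the no-bait library 269716, so a level of 3 counts is 2.86 RPM with bait and 11.1 RPM without; RPM is a count scaled by its library's total. On a list of miRNAs of mesenchymal basal lines, miR-21-5p, miR-221-3p, miR-222-3p and miR-146a-5p together took 18.5% of counts with bait and 14.4% without. Most of this was miR-21-5p, at 167088 RPM with bait and 97328 RPM without. miR-222-3p was lower with bait, at 8028 against 40198 RPM, and the others on the list were higher with bait. The 6 epithelial markers of the miR-200 family and miR-205-5p took 0.0181% and 0.0111%. Of these, miR-200b-3p had the most, with 144 counts with bait and 28 without, and miR-141-3p and miR-205-5p had 0 in both libraries. Of 6 blood cell markers, 3 were at 0 with bait and 4 without, and miR-142-5p had the most with bait, at 45 counts against 9 without.

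The 5p arms were abundant in both libraries and differed widely among themselves. hsa-miR-100-5p had 296361 RPM with bait (95% interval 295487 to 297237) and 452802 RPM without (450922 to 454683), and ranked first in each. hsa-miR-99b-5p had 34452 RPM with bait (34103 to 34803) and 29390.2 RPM without (28756 to 30035), ranking 7 with bait and 5 without. hsa-miR-99a-5p had 1255 RPM with bait (1188 to 1324) and 2021 RPM without (1855 to 2197), ranking 43 and 33. The order of the 3 arms was the same in both libraries, and none of their intervals touched. All intervals here cover counting error only, because reads without molecular identifiers are not independent molecules.

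**Figure D1:**
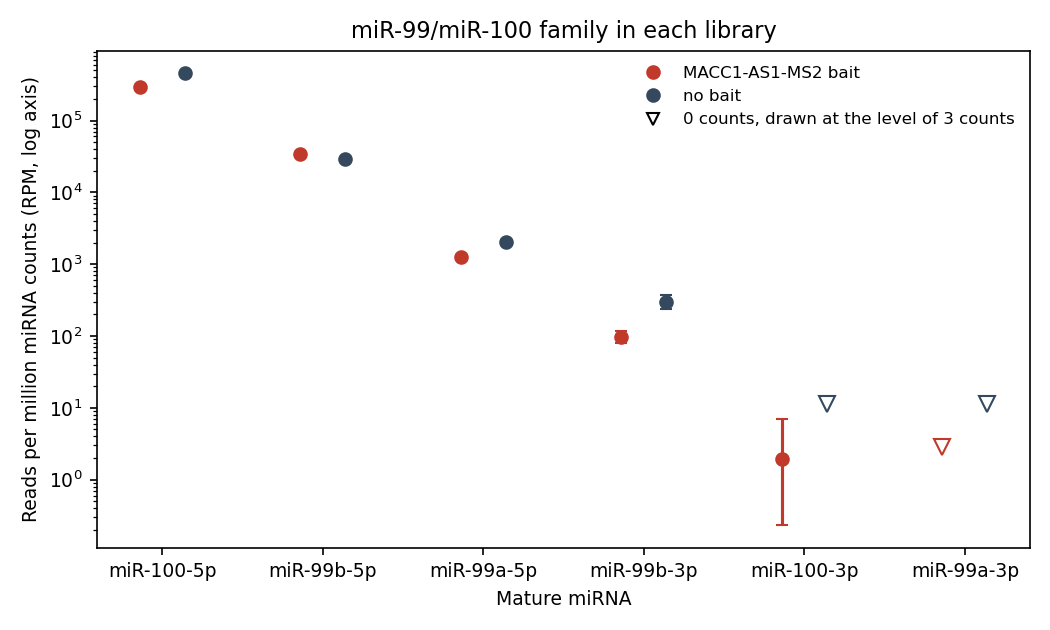
Level of each family member in RPM on a log axis, in the bait library (red, left) and the no-bait library (dark, right); bars are exact 95% intervals for counting error, and open triangles mark 0 counts, drawn at the level of 3 counts. miR-100-5p and miR-99a-5p sit lower with bait, miR-99b-5p slightly higher, and miR-99b-3p lower at 97.4 against 297 RPM.

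Together the 3 5p arms made up 33.2% of the bait library (33.1% to 33.3%) and 48.4% of the no-bait library (48.2% to 48.6%). miR-100-5p supplied 89.2% of the family's 5p counts with bait and 93.5% without. The share of miR-99b-5p was 10.4% with bait (10.3% to 10.5%) and 6.07% without (5.94% to 6.20%). miR-99a-5p supplied 0.378% with bait (0.358% to 0.399%) and 0.417% without (0.383% to 0.454%), and these intervals overlap. The family was thus a smaller part of the bait library, and miR-99b-5p was a larger part of the family there.

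**Figure D2:**
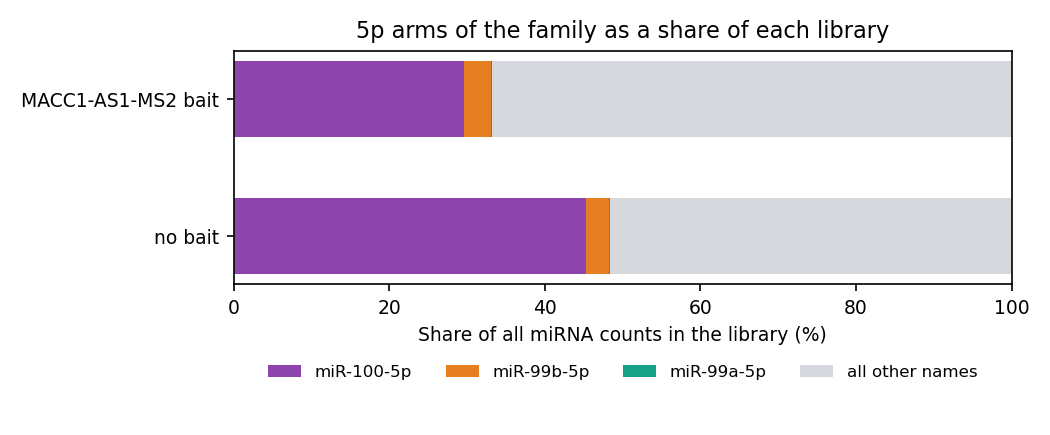
Share of all miRNA counts taken by the 3 5p arms, as stacked bars from 0 to 100%, for the bait library (top) and the no-bait library (bottom). The 5p arms fill 33.2% of the bait bar and 48.4% of the no-bait bar, nearly all of it miR-100-5p, while miR-99a-5p is a sliver.

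Of the 6 members, 4 reached the minimum of 30 counts over both libraries. A miRNA was called when its share differed at least 2-fold between the libraries and the exact interval of the ratio excluded 1. No tested member was called higher with bait, where 39.4% of all 231 tested miRNAs were, and 1 of 4 was called lower, where 26.8% were. The ratio of miR-100-5p, bait over no bait, was 0.655 (0.650 to 0.659), and that of miR-99a-5p was 0.621 (0.561 to 0.687). The ratio of miR-99b-5p was 1.17 (1.14 to 1.20). It was 1.30 when the libraries were scaled by edgeR TMM factors and 1.57 with DESeq2 size factors. It lay on the other side of 1, at 0.905, when the family itself was left out of the library totals. With those totals miR-99a-5p passed the lower rule at 0.479, and miR-100-5p stood at 0.505. The median log2 ratio was -0.65 over the 4 tested members and 0.55 over all tested miRNAs.

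Comparing members with each other removes the scaling between libraries. miR-99b-5p gained on miR-100-5p by a factor of 1.79 with bait relative to no bait (1.75 to 1.84), and on miR-99a-5p by 1.89 (1.70 to 2.09). The ratio of miR-99a-5p relative to miR-100-5p was 0.949, with an interval of 0.858 to 1.05 that includes 1. In counts, the bait library held 236 reads of miR-100-5p for each read of miR-99a-5p, and the no-bait library 224. For each read of miR-99b-5p it held 8.60 of miR-100-5p with bait and 15.4 without. The arms that differ at A16U alone therefore had ratios that could not be told apart at this depth, whereas the arm with 4 substitutions had a higher ratio than both. The counts of miR-99a-5p equalled 0.423% of those of miR-100-5p with bait and 0.446% without, and the part that miR-100-5p reads with a changed base play in them was not tested.

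The discarded arms were rare, and miR-99b-3p was the tested member called lower. It had 97.4 RPM with bait, from 102 counts, and 297 RPM without, from 80 counts. Its ratio was 0.328 (0.243 to 0.446), or 3.05-fold lower with bait. It took 0.282% of the reads of its hairpin with bait (0.230% to 0.342%) and 0.999% without (0.793% to 1.24%). The arms of miR-99b thus moved apart by 3.57-fold (2.63 to 4.84), and that gap does not depend on the scaling. Across the 34 hairpins with both arms tested, 20 had a wider gap between arms than miR-99b, in 11 of them in favour of the 5p arm, and the 5p arm had the higher ratio in 18. miR-100-3p had 2 counts in the bait library and 0 in the no-bait library, beside 310370 and 122128 counts of its 5p arm. miR-99a-3p had 0 counts in both libraries, where a level of 3 counts would be 2.86 RPM with bait and 11.1 RPM without. A difference in these arms was not detectable at this depth.

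The miRNAs encoded beside the family had ratios on both sides of 1, as did the tested miRNAs as a whole. Of the 11 names on the list of cluster neighbours, 8 were tested, of which 2 were called higher and 2 lower, beside the 39.4% and 26.8% over all tested miRNAs. The higher calls were miR-125b-5p and let-7a-2-3p. That of let-7a-2-3p rested on 32 counts with bait and 1 without, so it passed the count minimum through the bait library alone. In MIR100HG, let-7a-2 lies 5635 bases and miR-125b-1 52384 bases from MIR100. The ratio of let-7a-5p, a growth-restraining miRNA with 3 hairpins in the genome, was 0.618 (0.596 to 0.641) from 9421 RPM with bait and 15238 RPM without. miR-125b-1-3p, which comes from this locus alone, had 283 counts in the bait library against 123 in the no-bait library. Scaled by library totals, its ratio was 0.593 (0.478 to 0.738). Relative to miR-100-5p its ratio was 0.905, with an interval of 0.730 to 1.13 that includes 1. Relative to miR-100-5p the ratio of let-7a-5p was 0.945 (0.910 to 0.980). Both passed the lower rule with totals that leave out the family, at 0.477 for let-7a-5p and 0.457 for miR-125b-1-3p.

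miR-125b-5p, known to repress apoptosis genes, behaved otherwise. Its counts were 55601 on the bait resin against 1260 on no-bait resin, and it gained on miR-100-5p by 17.4-fold (16.4 to 18.4). The bait library held 5.58 reads of miR-100-5p for each read of miR-125b-5p, and the no-bait library 96.9. miR-125b-5p is also encoded in MIR99AHG, and the reads of its 2 hairpins cannot be told apart. The minor arm let-7a-2-3p had 32 counts in the bait library against 1 in the no-bait library, a ratio of 8.24 whose interval runs from 1.38 to 336.

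In MIR99AHG, let-7c begins 658 bases after MIR99A. let-7c-5p had 116 RPM with bait and 638 RPM without, 5.52-fold lower (4.35 to 7.02). Relative to miR-99a-5p it was 3.43-fold lower (2.64 to 4.45). let-7c-3p and miR-125b-2-3p had 1 count in each library. The ratio thus differed between neighbours that share a host gene. The sequence of let-7c-5p is 1 base from that of the far more abundant let-7a-5p.

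On chromosome 19, let-7e lies 104 bases and miR-125a 572 bases beyond MIR99B. miR-125a-5p had 4234 RPM with bait and 2948 RPM without, so its ratio was 1.44 (1.33 to 1.55), which is 1.23 relative to miR-99b-5p (1.13 to 1.33). let-7e-5p had 434 RPM with bait and 656 RPM without, so its ratio was 0.661 (0.554 to 0.790), and was 1.77-fold lower relative to miR-99b-5p (1.48 to 2.12). miR-125a-3p, with 25 bait and 23 no-bait counts, was called lower at 0.280 (0.152 to 0.516). Scaled by all counts, miR-99b-5p and miR-125a-5p were above 1 while their 3p arms were called lower, and the arms of miR-125a moved apart by 5.13-fold (2.77 to 9.47). let-7e-3p had 19 counts in the bait library against 1 in the no-bait library and was not tested.

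**Figure D3:**
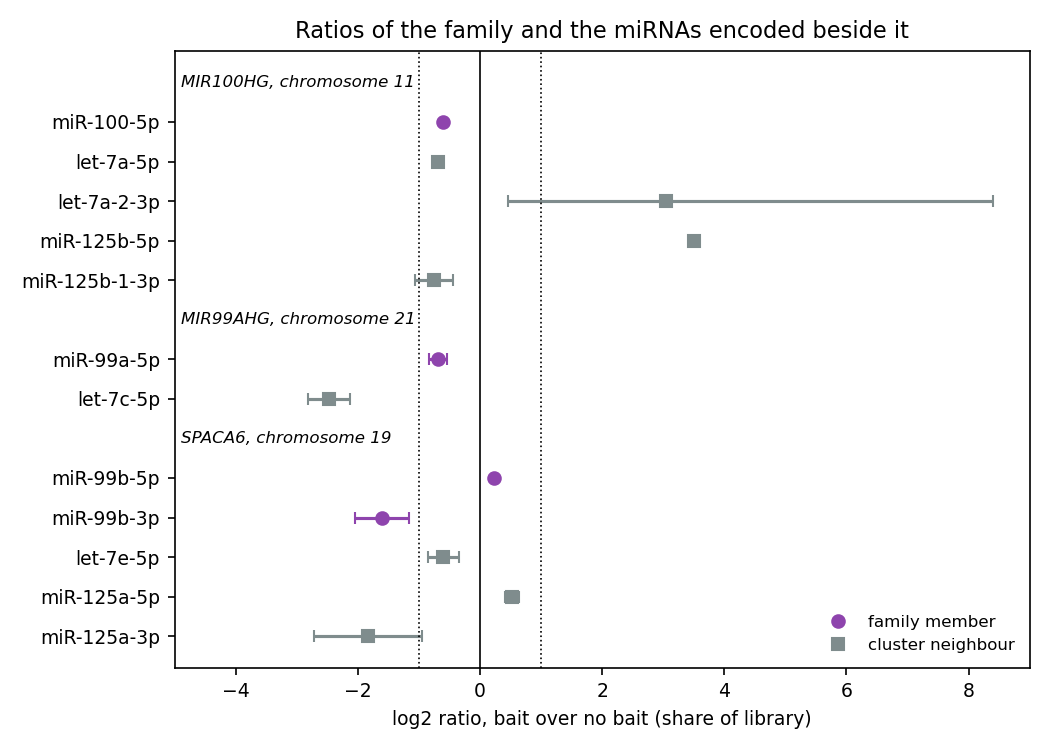
log2 ratio of bait over no bait for the tested family members (purple circles) and their tested cluster neighbours (grey squares), grouped by locus, with exact 95% intervals for counting error; dotted lines mark 2-fold. miR-100-5p and miR-99a-5p lie between 0 and -1, miR-125b-5p stands at 3.51, and the 3p arms of miR-99b and miR-125a lie beyond -1.

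Members were next set beside miRNAs of like ratio or next in bait rank. Among the 52 miRNAs with at least 1000 counts over both libraries, 19 were called higher, 9 lower and 24 neither, and all 3 members in this set were in the last class. Among the other miRNAs of this set, the ratios closest to that of miR-100-5p were those of let-7f-5p at 0.624, let-7a-5p at 0.618 and miR-378a-3p at 0.780. In the same set, those closest to miR-99b-5p were miR-30a-3p at 1.26, miR-148a-3p at 1.27 and miR-221-3p at 1.27. This likeness rests on the log2 ratio of 2 libraries.

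The miRNAs next to the members in bait rank had ratios from 0.0627 to 3.65. miR-26a-5p and miR-30d-5p stood next to miR-99b-5p in the bait library, at 39169.5 and 18300.0 RPM, but had 10729.8 and 7830.5 RPM without bait, so that their ratios were 3.65 and 2.34. Next to miR-99a-5p, miR-103a-3p had a ratio of 2.25 and miR-224-5p a ratio of 0.471. Next to miR-99b-3p, miR-151b had a ratio of 0.482 and miR-941 a ratio of 0.0627. Below miR-100-5p came miR-21-5p, at 167088 RPM with bait and 97328 RPM without. Counted from the lowest ratio, miR-99b-3p was at place 39 of 231, miR-99a-5p at 75, miR-100-5p at 78 and miR-99b-5p at 98.

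**Figure D4:**
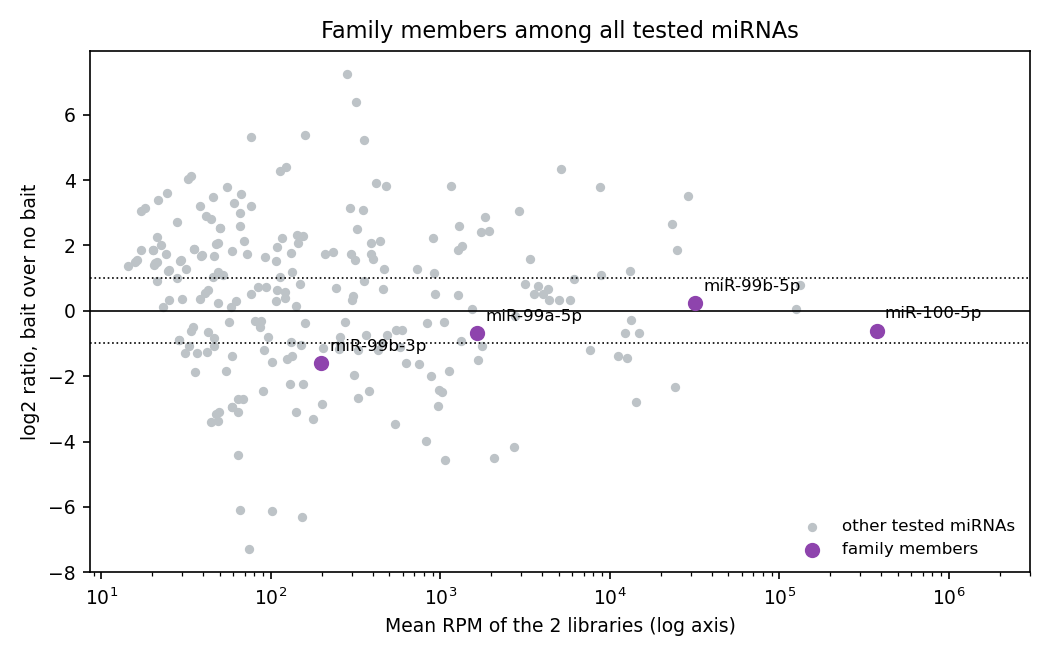
log2 ratio of bait over no bait against the mean RPM of both libraries (log axis) for all 231 tested miRNAs (grey), with the 4 tested family members in purple; dotted lines mark 2-fold. The members lie between -1.61 and 0.23, inside the wide spread of the other miRNAs.

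Because the family filled so much of each library, it also set the scale for all other miRNAs. The bait library was 3.88 times as deep as the no-bait library over all names, and 5.03 times as deep over the names outside the family. Leaving the family out of the totals multiplied every ratio by 0.772, a shift of -0.37 on the log2 scale, and brought the median over tested miRNAs to 0.17. With those totals 77 miRNAs were called higher and 77 lower, against 91 and 62 with all names counted. Scaling by edgeR TMM or DESeq2 factors shifted the log2 ratios the other way, by 0.15 and 0.42.

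No seed match of the family was found in MACC1-AS1. The transcript annotated by GENCODE, of 639 nt, was searched on its own strand for the reverse complement of bases 2 to 8 of each seed, since the labels do not say which isoform was used as bait. The site TACGGGT of the 5p arms was absent, as were CGAGCTT of miR-99a-3p and miR-99b-3p and CAAGCTT of miR-100-3p. Of 6416 long non-coding transcripts within 50 nt of that length, 0.546% held the first, 1.17% the second and 4.43% the third. With bases 2 to 7 alone, ACGGGT was also absent, which 3.09% of such transcripts held. The same was true of GAGCTT, held by 16.8% of them. It was true too of the 3p site AAGCTT, held by 18.2%. These are statements about letters in this transcript and say nothing of binding by other means or to the MS2 hairpins.

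In the authors' deposited table, which names no test, the log2 fold changes were -0.61 for miR-100-5p, -0.69 for miR-99a-5p, 0.23 for miR-99b-5p and -1.61 for miR-99b-3p. In the authors' deposited table miR-99b-3p was the member with a p-value under 0.05, at 0.0408, and with 1 library a group that value compares the libraries rather than the conditions. The authors' deposited table lists 7.58 for miR-100-3p, which rests on 2 counts set against a stand-in value of 0.01 RPM.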

How the data were processed

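Per the file headers, the authors deposited for each library a count per mature miRNA name and a normalized value. The deposited normalized value is an RPM, and it differed from the count scaled by the library's total by at most 0.00994 RPM. The authors' deposited table of the comparison also gives a log2 fold change and a p-value per miRNA, in which 0 RPM was replaced by 0.01. Per the submitters' processing notes, BWA was used. Its version, the miRNA reference and the genome build were not given in the sources used here, nor was the trimming.

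Counts were scaled by library totals (1047269 with bait, 269716 without). Ratios have exact conditional binomial 95% intervals, levels and shares exact Clopper-Pearson 95% intervals, and comparisons between members the exact conditional interval of the odds ratio (R 4.3.3). A minimum of 30 summed counts, a 2-fold change and an interval excluding 1 made a call. With 0 counts in 1 library, a ratio used a floor of 3 counts. Scaling by edgeR 4.0.16 and DESeq2 1.42.0 factors served as alternatives only. Python 3.11.15 and scipy 1.17.1 were used.

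The members, the neighbour list and the rule for named miRNAs were chosen with earlier results of these data known. The rule took the members, their cluster neighbours, miR-10a-5p and miR-10b-5p, names next in bait rank to members with at least 100 counts, and the 3 non-members with at least 1000 summed counts closest in log2 ratio to miR-100-5p and to miR-99b-5p. Marker lists covered mesenchymal, epithelial, blood, and liver, muscle and neuron miRNAs; the last list summed to 0.000955% of the bait library and 0.00371% of the no-bait library, and the blood list to 0.00630% and 0.00704%.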

Additional observations from a re-analysis of the deposited data

How the results depend on the processing

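With 1 library a group and the no-bait total as the limit on precision, counting error is the only error that could be given, and it understates the spread between experiments. Scaling moved every ratio together: the log2 shift was 0.15 with edgeR TMM factors, 0.42 with DESeq2 size factors, -0.13 with totals without the 5 most abundant miRNAs and -0.37 with totals without the family. In that order the log2 ratio of miR-100-5p was -0.46, -0.19, -0.74 and -0.99, and that of miR-99b-5p was 0.38, 0.65, 0.10 and -0.14. For miR-99a-5p it was -0.53 with TMM, -0.27 with DESeq2 factors and -1.06 without the family. These moves follow from the changed factor. The call of miR-99b-3p was kept under each scaling. Without the family in the totals 4 cluster neighbours were lower. DESeq2 factors split the calls into 114 higher and 44 lower. At a minimum of 100 counts, 146 names were tested, and calls numbered 59 higher and 37 lower. At a minimum of 10 counts, 325 names gave 95 higher and 81 lower. With no filter, 715 names gave 95 higher and 100 lower, against 91 and 62 in the main setting. Loosening the filter added mainly lower calls, and with no filter these outnumbered the higher ones. For rare names the rule itself leans that way. The floor of 3 counts is 2.86 RPM with bait and 11.1 RPM without. With 0 counts in 1 library, fewer counts were thus needed for a lower call than for a higher one. No conclusion about the miRNAs is drawn from this shift. Comparisons between members and arm shares were the same with the deposited RPM. This follows from arithmetic, because the library total cancels in them, so it is no check of the processing. No paired analysis was possible because each group has 1 library and the labels give no replicate numbers.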

Other observations

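The closest relatives of the family outside it are the miR-10 miRNAs, which are encoded in the HOX clusters. Written with the longest shared run in capitals, miR-100-5p and miR-10a-5p (RefSeq, GRCh38.p14) share 11 bases in a row, offset by 1 position. Bases outside this run are also alike, but the seeds differ.
miR-100-5p: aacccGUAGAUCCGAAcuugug
miR-10a-5p: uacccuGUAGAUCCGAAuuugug
miR-10a-5p had 6205 RPM with bait and 16217 RPM without, a ratio of 0.383 (0.368 to 0.398), which was 1.71-fold lower relative to miR-100-5p (1.65 to 1.78). miR-10b-5p, at 78 bait and 52 no-bait counts, had a ratio of 0.386 (0.269 to 0.560). Both calls were lost with DESeq2 size factors, at 0.513 and 0.518. The ratio of miR-10b-5p relative to miR-10a-5p was 1.01 (0.700 to 1.47). The counts of miR-10b-5p equalled 1.20% of those of miR-10a-5p with bait and 1.19% without. The part that miR-10a-5p reads with a changed base play in them was not tested, so the 2 calls may not be separate.

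miR-100-5p and miR-125b-5p end in the same 8 bases, shown in capitals, apart from the last base of miR-125b-5p.
miR-100-5p: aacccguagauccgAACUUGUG
miR-125b-5p: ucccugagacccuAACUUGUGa
Their ratios were 0.655 and 11.4.

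Names 1 base apart did not always have like ratios. let-7c-5p differs from let-7a-5p by A19G, and its counts equalled 1.23% of those of let-7a-5p with bait and 4.18% without, a ratio 3.41-fold lower relative to let-7a-5p (2.68 to 4.35). For miR-99a-5p and miR-100-5p the same percentages were 0.423% and 0.446%.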
